A study of Mus musculus with 11 samples.

Results

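The NF-κB family and its nearest regulators were followed in cultured fibroblasts, the matrix-producing connective tissue cells, taken directly from mouse lung. The 10 genes, chosen by symbol and matched by Ensembl identifier among the 58223 entries of each count table, were the subunits Nfkb1, Nfkb2, Rel, Rela and Relb, the IκB family members Nfkbia, Nfkbie and Nfkbiz, and the TNF-induced genes Tnfaip3 and Tnfaip2. These genes, and the wider lists below, were chosen with earlier results of these data known. Total RNA, depleted of ribosomal RNA, was sequenced from cGAS KO cells (3 female and 3 male libraries) and WT cells (2 female and 3 male libraries). cGAS is the cytosolic DNA sensor that signals through STING, and the comparison asked what its loss changed in unstimulated culture. All groups were grown in serum-containing medium under lowered oxygen, while the extraction text in the labels speaks of pulverized tissue. Strain and age are not stated in the labels, and no label says whether libraries of a group came from separate mice or cultures, so p-values measure the spread between these libraries, which may be technical. Female and male libraries carry differently styled file labels, so sex and that difference cannot be told apart.

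NF-κB is a set of dimeric transcription factors that IκB proteins hold in the cytoplasm until IκB kinases, activated below TNF, IL-1 and Toll-like receptors, mark those IκB proteins for destruction. The released dimers enter the nucleus and switch on inflammatory genes together with their own brakes, among them the IκB proteins themselves and the ubiquitin editor A20, encoded by Tnfaip3. A slower, noncanonical branch runs through processing of the Nfkb2 precursor and the subunit RelB, and cGAS-STING signalling can also reach NF-κB through TBK1 and IκB kinases. In lung fibroblasts the pathway is known for driving cytokine and chemokine production.

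The DNA before the start sites of these genes was searched for the sequence that NF-κB dimers recognise. RefSeq promoter windows (GRCm38.p6, the 250 bases before each annotated start) were matched for 7 of the 10 genes, and 6 of those 7 (Nfkb2, Rel, Nfkbia, Nfkbie, Tnfaip3 and Tnfaip2) held at least 1 match to the 10-base κB consensus, searched on both strands with overlapping matches merged. Of 27025 genes in the same table, 8.23% held a match, and 8.99% of windows within the GC range of the members' windows did. Rela had none of these letters in its window. In the first start of Nfkb2 and of Tnfaip3, 2 separate matches stood within the window, an arrangement found in 0.455% of genes. A match is a description of letters and not a site of binding. The last 130 bases before the start are shown for the 6 genes because the matches at these starts lie within them. Capitals mark the κB matches, on whichever strand they lie, and each line reads 5′ to 3′ along the gene's strand.
Nfkb2, first start, chr19:46304607-46304736, plus strand: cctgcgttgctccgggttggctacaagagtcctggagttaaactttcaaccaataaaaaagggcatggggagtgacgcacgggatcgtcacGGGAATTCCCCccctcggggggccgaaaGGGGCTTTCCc
Rel, chr11:23770970-23771099, minus strand: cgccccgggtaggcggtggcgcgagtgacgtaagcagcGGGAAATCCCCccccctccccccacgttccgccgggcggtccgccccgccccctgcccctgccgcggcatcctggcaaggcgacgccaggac
Nfkbia, chr12:55492648-55492777, minus strand: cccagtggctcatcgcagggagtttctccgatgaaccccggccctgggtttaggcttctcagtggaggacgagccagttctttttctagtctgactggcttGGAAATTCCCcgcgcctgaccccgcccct
Nfkbie, chr17:45555570-45555699, plus strand: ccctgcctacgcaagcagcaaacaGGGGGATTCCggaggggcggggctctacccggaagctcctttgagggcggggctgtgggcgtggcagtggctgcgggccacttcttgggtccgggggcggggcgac
Tnfaip3, first start, chr10:19015411-19015540, minus strand: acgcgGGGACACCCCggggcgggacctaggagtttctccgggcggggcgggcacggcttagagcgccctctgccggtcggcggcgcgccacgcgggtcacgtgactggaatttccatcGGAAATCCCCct
Tnfaip2, chr12:111442531-111442660, plus strand: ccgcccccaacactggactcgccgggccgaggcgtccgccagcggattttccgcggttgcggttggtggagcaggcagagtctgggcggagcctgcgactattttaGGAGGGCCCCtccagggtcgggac

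Total counts ran from 27261958 to 48039328 per library, and the lowest count of any of the 10 genes in any library was 253, for Nfkbie. Cgas itself, measured at 1.63 to 2.27 CPM (counts scaled to a common library size) in KO libraries and 5.89 to 9.85 CPM in WT libraries, separated the genotypes as labelled. Which part of the gene was deleted is not stated in the labels. WT female 2 stood apart, with 10.2% of its counts on repeat subfamilies, where KO libraries had 5.31 to 7.60% and the other WT libraries 6.11 to 8.10%. Fibroblast markers summed to 37823 to 52165 CPM in KO libraries and 40631 to 54289 CPM in WT libraries. Epithelial markers summed to 11.3 to 37.9 CPM in KO libraries and 22.7 to 57.3 CPM in WT libraries, endothelial markers to 55.3 to 105.2 CPM in KO and 40.2 to 89.98 CPM in WT libraries, and mesothelial markers to 10.6 to 105.1 CPM in KO and 19.9 to 144.8 CPM in WT libraries. Markers of T cells, B cells and neutrophils, 9 genes, summed to less than 1 CPM in every library of either genotype, and Ly6g was at 0 in all 11. The 20 leukocyte and macrophage markers were all detected in every library, with summed levels of 10560 to 17768 CPM in KO libraries and 7391 to 10815 CPM in WT libraries, led by Lyz2, Mrc1, Lcp1, Ctss and Cd68. The cultures thus held RNA of macrophage-type genes beside that of fibroblasts. In such bulk RNA, fewer cells of a type and less RNA per cell cannot be told apart.

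Per kilobase of annotated exon (GENCODE vM21), Tnfaip2 and Nfkbia had the highest levels of the 10 genes. The length was that of all annotated exons of a gene together, 12061 bases for Nfkb1, 4584 for Nfkb2 and 3072 for Rela. The order and the subunit shares below depend on these lengths, and the annotation behind the counts is not stated. Over all 11 libraries Tnfaip2, which encodes a TNF-induced protein linked to membrane protrusions, averaged 39.8 ± 6.43 CPM per kb (SD, n = 11), and Nfkbia, which encodes the classical inhibitor IκBα, 34.3 ± 6.28 CPM per kb. These neighbours in the order were not separated by their spread, since Tnfaip2 was above Nfkbia in 8 of 11 libraries. Rela, the main transactivating subunit, followed at 22.6 ± 1.19 CPM per kb and lay below Nfkbia and above Nfkb2 in 11 of 11 libraries. Nfkb2 (17.0 ± 2.15 CPM per kb) was above Nfkbiz (13.04 ± 2.95 CPM per kb) in 8 of 11 libraries. Nfkb1 (6.19 ± 0.695 CPM per kb) was above Relb (5.84 ± 0.914 CPM per kb) in 9 of 11. Tnfaip3, at 4.63 ± 0.650 CPM per kb, stood below Relb and above Rel in all 11. Rel (3.45 ± 0.509 CPM per kb) and Nfkbie (3.30 ± 0.872 CPM per kb) closed the order and were in that order in 8 of 11 libraries. Of the summed level of the 5 subunits per kilobase, Rela made up 40.0 ± 0.792% in KO libraries (SD, n = 6) and 42.5 ± 1.46% in WT libraries (SD, n = 5), and Nfkb2 31.5 ± 1.68% in KO libraries and 29.9 ± 2.52% in WT libraries.

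**Figure D1:**
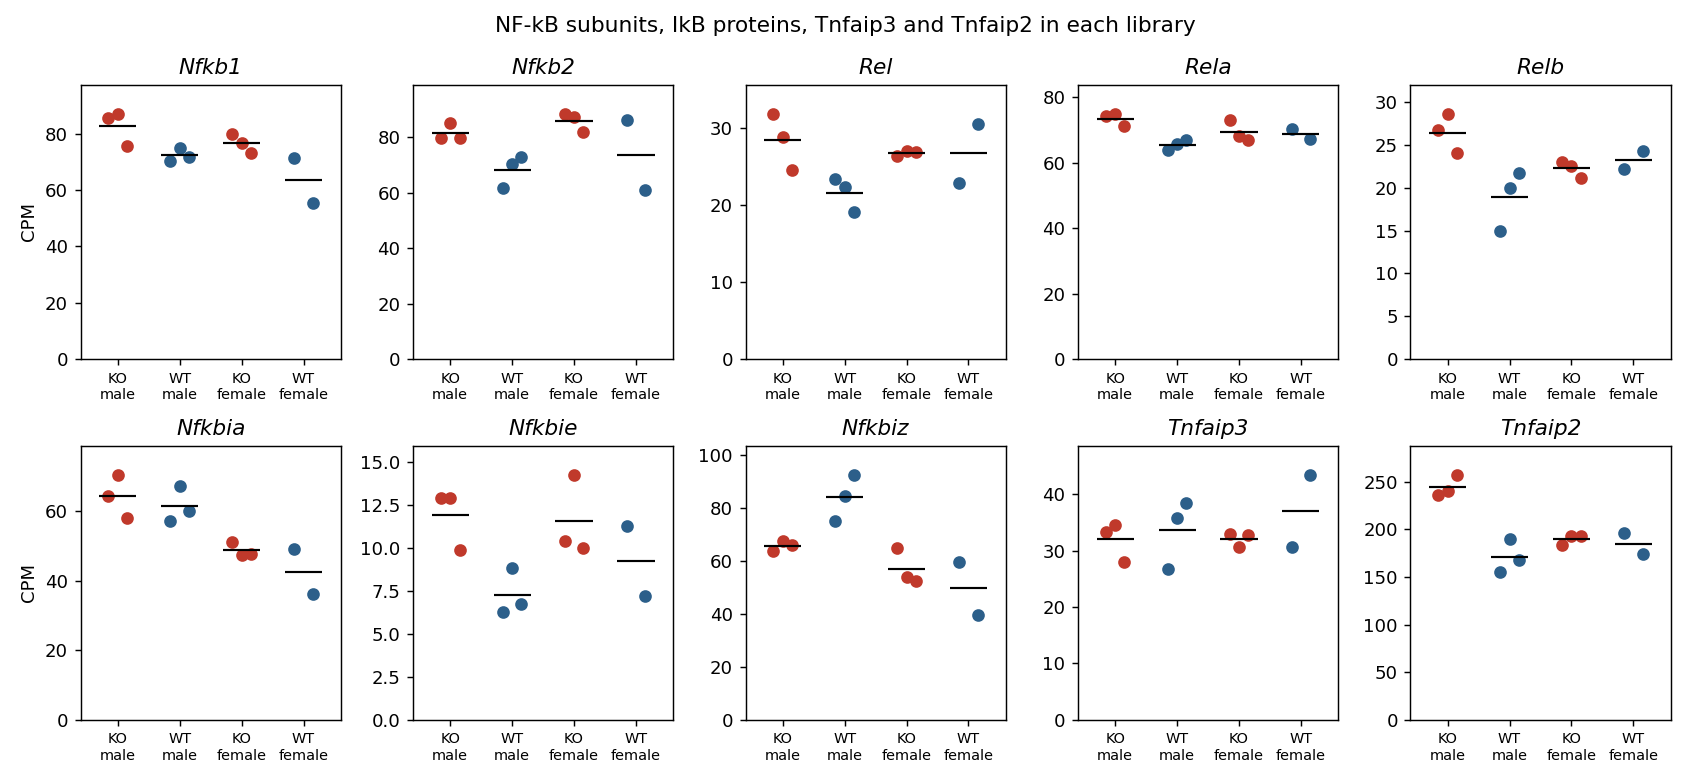
Level of each of the 10 genes in CPM in every library, with KO in red and WT in blue, males at the left and females at the right of each panel; points are libraries and bars are group means. For Tnfaip2 the KO male libraries sit between 235.6 and 256.9 CPM, and the WT male libraries between 155.3 and 189.6 CPM.

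Among the subunits, every KO male library lay above every WT male library for all 5 genes. The same held for Nfkbie and Tnfaip2, 7 of the 10 genes in all, whereas 16.9% of the 22960 entries tested in males had KO above WT in every library. Relb, the noncanonical subunit, had 26.8, 28.6 and 24.0 CPM in KO males, against 15.0, 20.1 and 21.7 CPM in WT males. In females it had 23.1, 22.6 and 21.2 CPM in KO cells, against 22.2 and 24.3 CPM in WT cells, so the female groups overlapped. Rel, the subunit known best from lymphoid and myeloid cells, had 31.7, 28.8 and 24.5 CPM in KO males and 23.3, 22.3 and 19.0 CPM in WT males. In females Rel was at 26.3 to 27.0 CPM in KO cells, between the WT libraries at 22.9 and 30.5 CPM.

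Nfkb1 encodes the precursor of the DNA-binding partner of RelA. It had 85.4, 86.8 and 75.5 CPM in KO males, against 70.4, 75.0 and 71.5 CPM in WT males. In females it had 79.8, 76.5 and 73.2 CPM in KO cells, against 71.5 and 55.5 CPM in WT cells. The KO libraries of Nfkb1 lay above the WT libraries within each sex. The nearest values were 75.5 against 75.0 CPM in males and 73.2 against 71.5 CPM in females. Of the entries tested, 16.9% in males and 11.2% in females had KO above WT in every library. The share with both at once was not computed. KO female 3 fell below WT male 2, so the groups overlapped over both sexes. Nfkb2, precursor of the partner of RelB, ranged from 79.7 to 88.4 CPM with a median of 83.7 CPM in the 6 KO libraries. In WT libraries it had 61.8, 70.6 and 72.8 CPM in males and 86.3 and 61.1 CPM in females, so that WT female 1 alone stood within the KO range. Rela was at 66.8 to 74.8 CPM in KO libraries and 64.0 to 70.5 CPM in WT libraries.

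Nfkbie, encoding the inhibitor IκBε and holding 1 κB match in the window shown, had 12.9, 12.9 and 9.87 CPM in KO males, against 6.26, 8.85 and 6.71 CPM in WT males. Its KO females had 10.4, 14.2 and 10.01 CPM, against 11.3 and 7.21 CPM in WT females. The male groups did not overlap and the female groups did. Nfkbiz encodes a nuclear IκB protein that works with NF-κB on secondary response genes. It had 63.6, 67.5 and 66.1 CPM in KO males, against 74.9, 84.6 and 92.4 CPM in WT males. Every KO male was therefore below every WT male, an arrangement held by 13.9% of entries tested in males. In females the values were 65.0, 53.8 and 52.4 CPM in KO cells and 59.7 and 39.7 CPM in WT cells, which overlapped.

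Nfkbia was higher in male than in female libraries, which was not tested and cannot be told apart from the differing file labels. It had 64.3, 70.3 and 57.9 CPM in KO males and 57.1, 67.2 and 59.9 CPM in WT males. In females it had 51.1, 47.5 and 47.8 CPM in KO cells and 49.1 and 36.1 CPM in WT cells. All 6 male libraries were thus above all 5 female libraries, which held for no other gene of the 10 and for 3.40% of the 22298 entries tested over both sexes.

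Of the TNF-induced genes, Tnfaip2 had 235.6, 240.1 and 256.9 CPM in KO males, against 155.3, 189.6 and 168.2 CPM in WT males. In females it had 183.0, 192.7 and 192.9 CPM in KO cells, against 195.6 and 174.3 CPM in WT cells. Every KO male library lay above every WT male library, an arrangement held by 16.9% of entries tested in males. The female groups overlapped. Tnfaip3, whose product A20 dampens TNF receptor signalling, had 33.3, 34.7 and 28.1 CPM in KO males, against 26.8, 35.7 and 38.4 CPM in WT males. In females it had 33.03, 30.6 and 32.8 CPM in KO cells, against 30.7 and 43.4 CPM in WT cells. Its genotypes overlapped in both sexes.

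Over both sexes, no gene of the 10 passed the test of KO against WT. The edgeR quasi-likelihood test, with Benjamini-Hochberg adjustment across every entry tested, called 1 of 22298 entries (0.00448%), and that entry was Cgas (log2 fold change −1.98, SE 0.15, adjusted p = 0.000954). At an unadjusted p under 0.05, 4 of the 10 genes were higher in KO cells and none lower, where 10.5% of all entries were higher and 6.64% lower. No gene of the 10 had all KO libraries above or all below the WT libraries, which 1.01% and 0.354% of entries had. As the 10 genes were chosen with earlier results of these data known, setting them beside all entries is a description only. The fold changes of 8 of the 10 were above 0, against 48.5% of all entries. Their median was 0.22 on the log2 scale, against −0.0087 for all entries. Nfkbie had the largest of them at 0.54 (SE 0.16, 95% interval 0.18 to 0.90, edgeR adjusted p = 0.176). Tnfaip2 stood at 0.30 (SE 0.10, interval 0.08 to 0.52, edgeR adjusted p = 0.189), Nfkb2 at 0.24 (SE 0.09, edgeR adjusted p = 0.215) and Nfkb1 at 0.23 (SE 0.08, edgeR adjusted p = 0.197). Nfkbiz (−0.11, SE 0.14) and Tnfaip3 (−0.13, SE 0.12) were the 2 genes with a value below 0. DESeq2 called 556 entries (2.49%) and none of the 10, whereas limma-voom with sample quality weights called 2779 entries (12.5%) and 6 of the 10. It weighted WT male 2 by 5.63 and WT female 2 by 0.140. Its calls were higher in KO cells for Nfkb2, Rel, Relb, Nfkbie and Tnfaip2 and lower for Nfkbiz (−0.28). Without WT female 1, edgeR called 1616 entries and 3 of the 10, namely Nfkb2, Nfkbie and Tnfaip2. Without WT female 2 it called 1 entry and 0 of the 10.

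**Figure D2:**
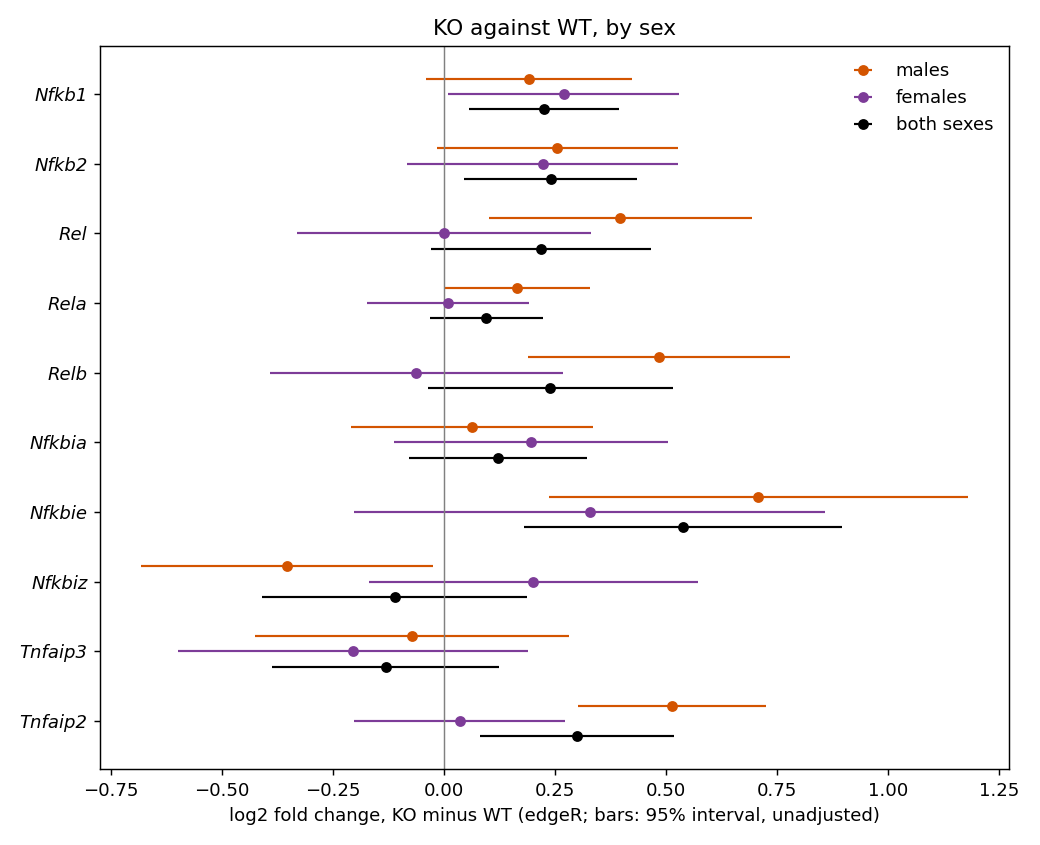
Fitted log2 fold change of KO minus WT for each of the 10 genes over both sexes, in males and in females, with 95% intervals as bars. Nfkbie is at 0.54 over both sexes and at 0.71 in males, and the male values of Tnfaip2 (0.51) and Relb (0.48) lie apart from their female values (0.04 and −0.06).

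In males Tnfaip2 rose in KO cells, by 0.51 on the log2 scale (SE 0.10, interval 0.30 to 0.73, edgeR adjusted p = 0.0478), to 244.2 ± 11.2 CPM in KO males, against 171.0 ± 17.3 CPM in WT males (SD, n = 3 each). It was the 1 gene of the 10 past the threshold, where 280 of 22960 entries (1.22%) were called. Relb followed with 0.48 (SE 0.13, edgeR adjusted p = 0.0762), Nfkbie with 0.71 (SE 0.21, edgeR adjusted p = 0.0926) and Rel with 0.40 (SE 0.13, edgeR adjusted p = 0.121), while Nfkbiz had −0.35 (SE 0.15, edgeR adjusted p = 0.196). At an unadjusted p under 0.05, 5 of the 10 were higher and 1 lower, where 12.1% of entries were higher and 9.96% lower. DESeq2 called Tnfaip2, Relb and Nfkbie, among 2124 entries (9.25%), and limma-voom 7 of the 10, among 4200 (18.3%). Of those 7, Nfkbiz was lower in KO cells (−0.35 by limma-voom) and the others were higher. The call of Tnfaip2 lay close to the threshold: it was lost with RLE size factors (edgeR adjusted p = 0.0508) and without KO male 1 (0.206), WT male 3 (0.145), KO female 2 (0.0780), WT male 1 (0.140), KO female 1 (0.0623), KO male 2 (0.196) or KO female 3 (0.0885), each left out alone, while the fold change stayed between 0.44 and 0.58. Leaving out WT female 1 or WT female 2 left that group with 1 library, which adds nothing to the spread that the male test shares. Male calls from those fits are therefore not read as results about these genes. With each library left out in turn, male values ranged from 0.61 to 0.86 for Nfkbie, 0.34 to 0.59 for Relb and 0.31 to 0.49 for Rel.

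In females no gene of the 10 was called by edgeR. The test called 1 of 22960 entries (0.00436%), Cgas, and 1522 entries (6.63%) had an unadjusted p under 0.05, of the 10 only Nfkb1 (0.27, SE 0.12, edgeR adjusted p = 0.671). DESeq2 called 6 entries (0.0261%) and limma-voom 0 (0%), and neither called any of the 10. Female values of Tnfaip2 (0.04, SE 0.11), Relb (−0.06, SE 0.15) and Rel (0.00, SE 0.15) stood near 0. Leaving out either WT female library put the whole female comparison on 1 WT library, assumed to vary like the other groups. Without WT female 1 that library was WT female 2, which had 10.2% of its counts on repeat subfamilies. With each library left out in turn, female values ranged from 0.09 to 0.46 for Nfkb1, −0.015 to 0.49 for Nfkb2 and −0.07 to 0.52 for Nfkbiz.

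The difference between the sexes was itself tested, and edgeR called no entry of 22960 (0%). At an unadjusted p under 0.05, 2960 entries (12.9%) and 3 of the 10 genes differed. Those were Tnfaip2 (male minus female 0.48, SE 0.14, edgeR adjusted p = 0.307), Relb (0.55, SE 0.20, edgeR adjusted p = 0.325) and Nfkbiz (−0.55, SE 0.22, edgeR adjusted p = 0.352). DESeq2 called 225 entries (0.980%) for the difference and limma-voom 0 (0%), with none of the 10 in either. With each library left out in turn, the difference of Nfkbiz ranged from −0.88 to −0.26.

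The levels of macrophage-type markers varied between libraries beside those of several of these genes. In males the summed level of the 20 markers was 17768, 15982 and 10746 CPM in KO libraries and 7945, 10107 and 7391 CPM in WT libraries. In females it was 11077, 11803 and 10560 CPM in KO libraries and 10815 and 8200 CPM in WT libraries. All 20 markers had positive fold changes over both sexes (median 0.50), and edgeR called none, with 15 higher at an unadjusted p under 0.05 (10.5% of all entries). In males 4 were called higher in KO cells (0.719% of all entries), namely the macrophage surface gene Adgre1 (1.02, SE 0.19), Laptm5 (0.87, SE 0.17), Cd68 (0.93, SE 0.19) and Fcer1g (0.83, SE 0.17), each with an edgeR adjusted p of 0.0478. Those calls were kept under 9 of 19 alternatives for each marker. The 19 included the mean level of the 20 markers as a covariate, which contains these 4 markers themselves. They also included leaving out both WT libraries numbered 2, chosen after seeing the data, which kept the calls. Most epithelial, mesothelial and endothelial markers had fold changes below 0 in the same male comparison, and edgeR called none of them. All 8 epithelial markers tested were below 0 (median −1.36), 5 of them at an unadjusted p under 0.05, and all 5 mesothelial markers were below 0 (median −1.61), none at that level. Of 8 endothelial markers the median was −1.47, with 5 lower, among them Pecam1 (−2.01), Cdh5 (−2.01) and Cldn5 (−2.67), and 2 higher, Vwf (1.22) and Kdr (0.51), at an unadjusted p under 0.05, where 12.1% of all entries were higher and 9.96% lower. In females the medians were 0.12 for epithelial, 0.98 for mesothelial and 0.36 for endothelial markers. The part of these cell types in the differences of the 10 genes was not tested.

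Across the 11 libraries Nfkbie followed the mean log2 level of those markers most closely of the 10 genes. Its Pearson r was 0.90 and its Spearman rho 0.94 (permutation p = 0.00031 and 0.00012, adjusted over the 10 relations 0.0031 and 0.0012). It was 0.90 without the libraries farthest from the median score, KO male 1 and WT male 3, 0.90 after removal of genotype and sex means, and 0.97 in the 6 male libraries. Nfkb1 had r = 0.80 and rho = 0.76 (permutation p adjusted 0.009 and 0.0365) and Tnfaip2 r = 0.77 and rho = 0.70 (permutation p adjusted 0.0185 and 0.0393). Rela (r = 0.75) and Nfkb2 (r = 0.68) also passed, at adjusted permutation p of 0.0185 and 0.0436. The permutations did not take account of genotype and sex. After removal of genotype and sex means r was 0.61 for Nfkb1, 0.53 for Rela, 0.51 for Tnfaip2 and 0.46 for Nfkb2, and in the 6 male libraries 0.96, 0.87, 0.80 and 0.73 for the same genes. Without the same 2 farthest libraries r was 0.86 for Nfkb1, 0.69 for Rela, 0.69 for Tnfaip2 and 0.83 for Nfkb2. Rel (0.58), Relb (0.60), Nfkbia (0.44), Nfkbiz (−0.08) and Tnfaip3 (−0.26) did not pass. In the 6 male libraries r was 0.95 for Rel, 0.75 for Relb, 0.66 for Nfkbia, −0.79 for Nfkbiz and 0.06 for Tnfaip3. The 5 female libraries are too few for a value of their own.

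**Figure D3:**
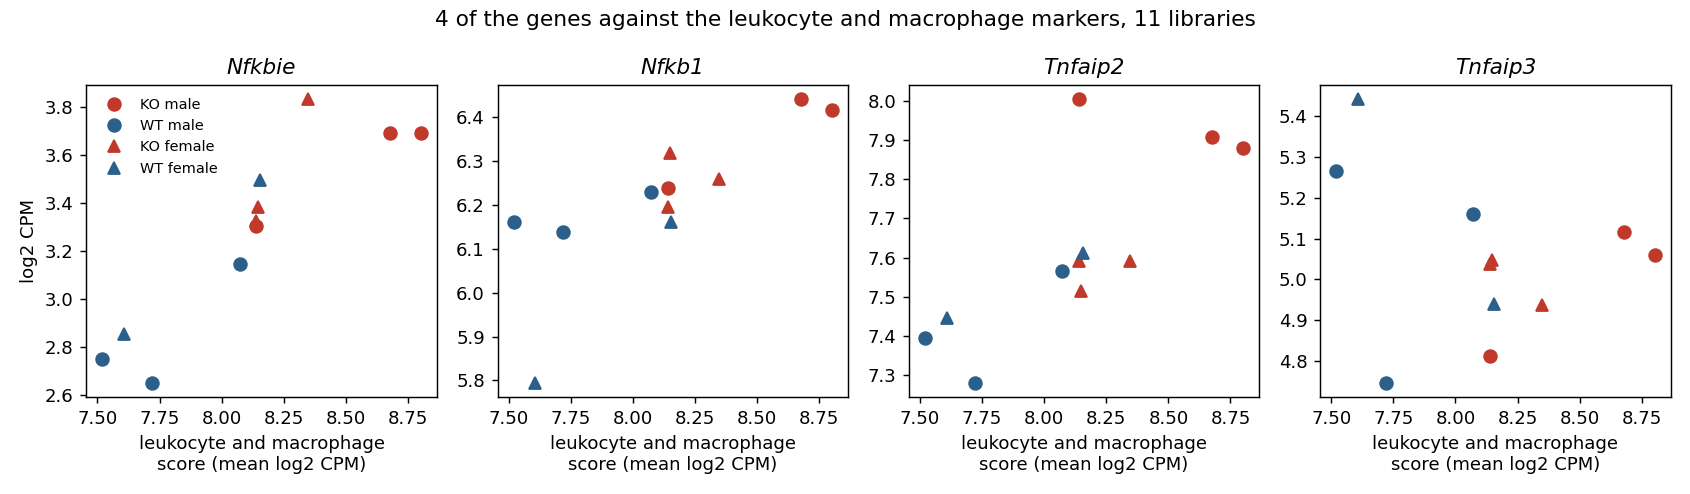
Level of Nfkbie, Nfkb1, Tnfaip2 and Tnfaip3 (log2 CPM, vertical) against the mean log2 CPM of 20 leukocyte and macrophage markers (horizontal), 1 point per library, with KO in red, WT in blue, circles for males and triangles for females. Nfkbie climbs with the markers (r = 0.90), and Tnfaip3 does not (r = −0.26).

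When the marker score was added to the model, the fold change of Nfkbie was 0.04 (SE 0.14) over both sexes, against 0.54 without it, and 0.03 (SE 0.20) in males, against 0.71 without it. Tnfaip2 kept more of its size, with 0.15 (SE 0.13) over both sexes and 0.43 (SE 0.14, edgeR adjusted p = 0.843) in males. Relb was at 0.44 (SE 0.22) in males with the score, and Nfkbiz at −0.49 (SE 0.24). Nfkb1 in males and Nfkbia over both sexes and in males changed sign, to −0.07, −0.04 and −0.26. With the score, edgeR called no entry at all in any of the 4 comparisons, Cgas included (−2.06, adjusted p = 0.129), so the lost calls are not particular to these genes. The score as a term in males, in females and in their difference was added after the data were seen. The part of macrophage-type cells in these differences was not tested.

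**Figure D4:**
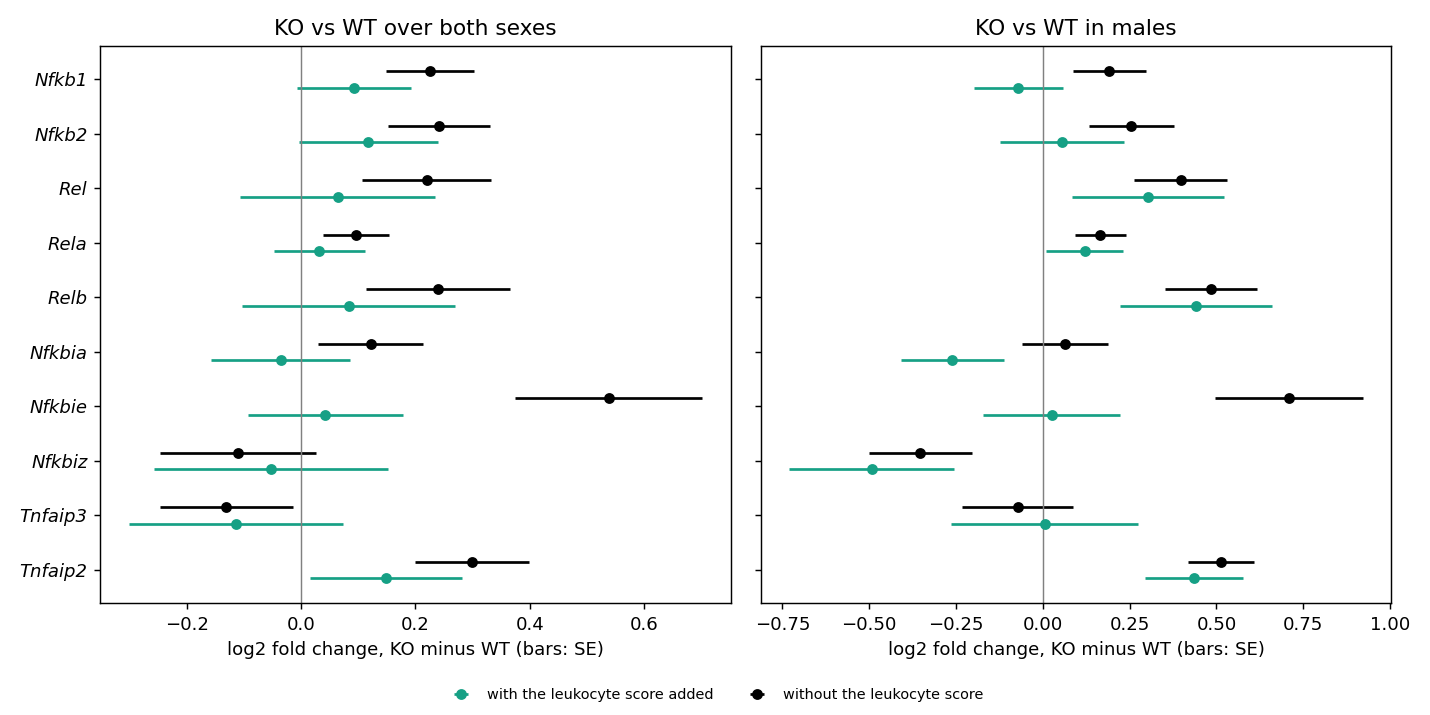
Fitted log2 fold change of KO minus WT for the 10 genes over both sexes (left) and in males (right), with the leukocyte and macrophage score in the model (green) and without it (black); bars are SE. In males Nfkbie is at 0.03 with the score and 0.71 without it, while Relb is at 0.44 and 0.48.

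The wider pathway was followed in 96 further genes, of which 92 passed the filter on low counts. These genes too were chosen with earlier results known, so their counts are set beside all entries as a description only. Over both sexes edgeR called none of them, 25 were higher and 4 lower in KO cells at an unadjusted p under 0.05 (10.5% and 6.64% of all entries), and 70 had a positive fold change (48.5% of all entries), with a median of 0.13, against −0.0087 for all entries. DESeq2 called 7 of the 92 (2.49% of all entries) and limma-voom 15 (12.5% of all entries). In males 2 passed, both lower in KO cells, where 0.501% of all entries were called lower. Tnfrsf12a, the receptor for TWEAK, fell by 1.27 on the log2 scale (SE 0.25), and Ptgs2, the inducible cyclooxygenase, fell by 1.65 (SE 0.33), each with an edgeR adjusted p of 0.0478. The call of Tnfrsf12a was kept under 9 and that of Ptgs2 under 10 of 19 alternatives, and with the marker score the values were −0.71 and −0.95 (edgeR adjusted p = 0.843 each). Among the other settings that ended both calls were RLE size factors and leaving out WT male 1, KO female 2, KO male 1, WT male 3, KO female 3 or KO male 2, and Tnfrsf12a was also lost without KO female 1, at edgeR adjusted p of 0.0508 to 0.206.

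By role, 7 of 10 ligands were tested, with 3 higher at an unadjusted p under 0.05 and none lower. The shares of all entries to set beside this and the next counts are 10.5% higher and 6.64% lower. Tnfsf12, which encodes TWEAK, averaged 34.9 ± 6.05 CPM in KO libraries and 25.1 ± 3.41 CPM in WT libraries (log2 0.48, edgeR adjusted p = 0.173). Tnfsf14 (LIGHT) had 1.04 and Il1a 0.47 on the log2 scale. Of 14 receptors, 5 were higher and 1 lower at that unadjusted level. Tnfrsf11a, the receptor RANK, had 0.49, the endotoxin receptor gene Tlr4 had 0.52, and Tnfrsf12a had −0.81 with 35.7 ± 13.9 CPM in KO libraries and 58.0 ± 16.2 CPM in WT libraries. Cd14 stands both among the receptors and among the macrophage markers.

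Among 26 adaptors, ubiquitin ligases and upstream kinases, 7 were higher and none lower at an unadjusted p under 0.05, those with the smallest p being the death domain kinase gene Ripk1 (0.30), Irak4 (0.36), a kinase below IL-1 and Toll-like receptors, and the ubiquitin ligase gene Birc3 (0.37). The largest fold change of the 7, named after its value was seen, was that of the TNF receptor adaptor gene Traf1 (0.79). Of the 5 IκB kinase genes, 3 were higher, Ikbke (0.40), Tbk1 (0.20), the kinase that STING activates, and Ikbkb (0.18), and 1 was lower, Chuk (−0.20). Of 15 other IκB proteins and brakes, 3 were higher and none lower, namely Irak3 (0.49), which restrains Toll-like receptor signalling, the linear-ubiquitin protease gene Otulin (0.28) and Nfkbib (0.22), which encodes IκBβ. Of 25 other NF-κB targets tested, 4 were higher and 2 lower, shares near those of all entries. The survival gene Bcl2l1 had 0.27, Cd83 had 0.86, and Ptgs2 had −1.13 with 59.2 ± 26.8 CPM in KO libraries and 127.3 ± 43.1 CPM in WT libraries. None of these genes passed the edgeR threshold over both sexes, with adjusted p from 0.173 to 0.267.

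**Figure D5:**
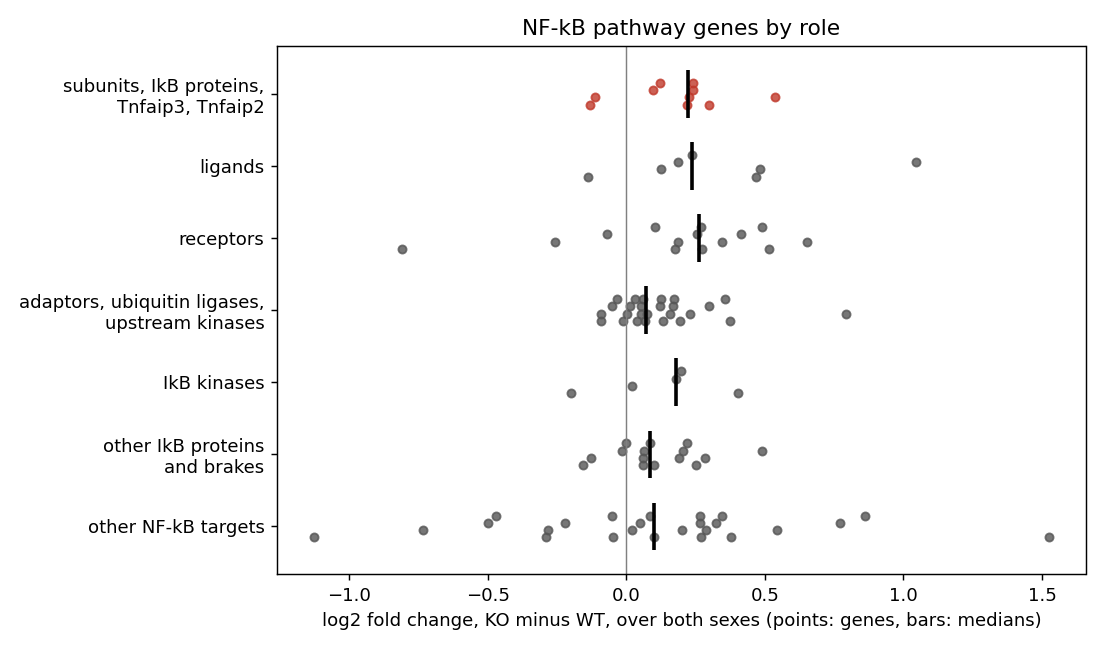
Log2 fold change of KO minus WT over both sexes for the 10 genes (red) and for 92 further pathway genes grouped by role (grey); points are genes and black bars are medians. The median of the 10 genes is 0.22, and that of the further genes together is 0.13.

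Nfkb2 overlaps Psd and AC114539.1, and Tnfaip2 overlaps Gm40578, in each case on the opposite strand. Because the strand setting of the counting is not stated in the labels, the values of Nfkb2 and Tnfaip2 are uncertain to that extent; the partners averaged 7.20, 5.10 and 11.8 CPM in their own rows.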

How the data were processed

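Total RNA of 11 libraries was measured by sequencing. Trim Galore, STAR and the GRCm39 build are named, without versions, per the submitters' processing notes. The counting program, annotation and strand setting are not stated there or in the labels. The authors deposited raw whole-number counts, 1 table per library, for 56980 Ensembl genes and 1243 repeat subfamilies. Symbols came from GENCODE vM21, which matched 52073 gene IDs, and promoter sequences from RefSeq (GRCm38.p6); no coordinate was converted.

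CPM were computed here with TMM-scaled library sizes. KO and WT were tested with edgeR 4.0.16 (limma 3.58.1, R 4.3.3; quasi-likelihood F-test, filterByExpr with a minimum count of 10) on genes and repeats together. Over both sexes the model was additive in genotype and sex, leaving 8 residual degrees of freedom; contrasts by sex and their difference came from a cell-means model leaving 7. Adjustment (Benjamini-Hochberg) covered all entries, with a threshold of 0.05. SE is the fold change divided by the root of F. A count of 0 allows up to 3 counts, 0.0609 to 0.110 CPM, for counting error only. Alternatives were RLE factors, no filter, Ensembl genes only, DESeq2 1.42.0, limma-voom with quality weights, a replicate block, a leukocyte score (mean log2 CPM of 20 markers) as covariate, and each library left out. Correlations used 100000 permutations.

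Replicates differed by more than counting noise, with chi-square per degree of freedom of 12.0 to 144. On simulated counts for the contrast over both sexes (22298 entries), the test recovered 22% of entries changed by 0.5, 80% of those changed by 1 and 100% of those changed by 2 on the log2 scale. The changed entries averaged above 1 CPM. Counts were drawn independently, with no sex effect and no difference in quality between libraries, so recovery in the real libraries was not measured. Named genes were the 10 members, the 3 of each list with the smallest p over both sexes and any list gene past the threshold, the 5 highest macrophage markers and any at 0, and the 2 genes most like each member; Chuk was named after its value was seen, as the 1 lower kinase. The members and lists were chosen with earlier results of these data known.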

Additional observations from a re-analysis of the deposited data

Results flagged for a closer look

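Nfkb1 in WT female 2 stood apart from the other 4 WT libraries. It had 55.5 CPM there and 70.4 to 75.0 CPM in the others, and the gap to the nearest library made up 0.793 of the range of the WT group, above the 95% limit of Dixon's test for 5 values. Chance gives such a value in about 1 of 20 groups, and 22 groups of KO or WT libraries were examined, of which this was the 1 that passed.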

How the results depend on the processing

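The counts of calls depended on the test and on the libraries kept. Over both sexes edgeR called 3 entries with no filter, DESeq2 556 and limma-voom 2779 with 6 of the 10 genes, and the wider lists had 7 calls with DESeq2 and 15 with limma-voom. In males the entries called were 8 with RLE factors, 1079 with no filter, 2124 with DESeq2 and 4200 with limma-voom, and the genes of the 10 called were 0 with RLE factors, 3 with DESeq2 and 7 with limma-voom. In females DESeq2 called 6 entries and limma-voom 0, and for the difference 2 were called with no filter and 225 with DESeq2. With the leukocyte score as covariate, 0 entries were called in each of the 4 comparisons and 0 of the 10 genes in males. Leaving out both WT libraries numbered 2, chosen after seeing the data, gave 2712 entries and 2 of the 10 genes in males (Tnfaip2 at 0.60 and Nfkbie at 0.89, edgeR adjusted p = 0.0146 and 0.0243), 1 entry for the difference and the same counts as before over both sexes and in females.

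With each library left out in turn, entries called ranged from 1 to 1616 over both sexes, 0 to 2114 in males, 0 to 3695 in females and 0 to 2430 for the difference. Of the 10 genes, 0 to 3, 0 to 4, 0 to 3 and 0 to 1 were called in those comparisons, and 0 to 14 of the wider lists over both sexes. The fits without WT female 1 or WT female 2 left 1 library in that group, so their counts of calls are a description only. With a replicate block, 0 entries were called over both sexes, in males and in females, and 0 of the 10 genes in males (Tnfaip2 at 0.52, edgeR adjusted p = 0.135; Cgas over both sexes −1.95, adjusted p = 0.0715). The block also ended the male calls of Ptgs2 (edgeR adjusted p = 0.133) and Tnfrsf12a (0.142). Whether equal numbers pair KO and WT libraries was not decided. With group means removed, same-numbered libraries correlated at −0.138 to 0.0686 in males and −0.104 to 0.0288 in females. KO male 1 correlated best with WT male 2 (0.181). In groups this small, removing the means forces positive and negative values to offset each other, so the correlations cannot decide the pairing.

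After the change of sign most values were near 0, and the cause was not tested. In the main fit some of them were not near 0. In females Nfkb2 had 0.22, Nfkbia 0.20, Nfkbiz 0.20 and Tnfaip3 −0.20 there. Rela in females was −0.0032 with RLE factors, −0.0071 with Ensembl genes only, −0.0023 with DESeq2, −0.0030 with limma-voom and −0.0101 with the score. Rel in females was 0.0173 with limma-voom and 0.0105 with the replicate block. With the score, Nfkbia was −0.0358 over both sexes and −0.261 in males, Nfkb1 −0.0710 and Tnfaip3 0.0053 in males, and the difference of Nfkb2 was −0.0911 and that of Nfkbie −0.0251. Without both WT libraries numbered 2, Tnfaip3 was 0.0117 over both sexes. In females, without those libraries, Nfkb2 was −0.0151, Rel 0.215, Rela −0.0336, Nfkbia −0.0174, Nfkbiz −0.0742, Tnfaip3 0.0605 and Tnfaip2 −0.0541, and the differences of Nfkb1, Nfkbia and Tnfaip3 were 0.140, 0.161 and −0.0785. With 1 library left out, values in females ranged from −0.0150 to 0.493 for Nfkb2, −0.194 to 0.215 for Rel, −0.0469 to 0.0426 for Rela, −0.0174 to 0.432 for Nfkbia, −0.0741 to 0.525 for Nfkbiz, −0.433 to 0.0604 for Tnfaip3 and −0.0541 to 0.121 for Tnfaip2. In males they ranged from −0.0079 to 0.127 for Nfkbia and −0.217 to 0.0328 for Tnfaip3, and for the difference from −0.273 to 0.117 for Nfkb1, −0.237 to 0.284 for Nfkb2, −0.369 to 0.0946 for Nfkbia and −0.120 to 0.361 for Tnfaip3.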

Other observations

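The genes whose levels ran most like those of the 10 across the 11 libraries were listed by Pearson r of log2 CPM among 11928 named genes, as a description only. Nfkb1 was most like Rcsd1 (0.98) and Pon2 (0.98), Nfkb2 like Akt2 (0.96) and Brat1 (0.95), Rel like Ankrd33b (0.97) and Slc15a4 (0.96), Rela like Mfsd9 (0.94) and Eef2kmt (0.92), and Relb like Rab5b (0.98) and Fam3a (0.97). Nfkbia was most like Pde6h (0.98) and Arhgdib (0.97), Nfkbie like Cyp27a1 (0.96) and S1pr1 (0.96), and Nfkbiz like Zdhhc17 (0.96) and Vps36 (0.95). Tnfaip3 was most like Sdr39u1 (0.95) and Phf8 (0.92), and Tnfaip2 like Mvp (0.96) and Tbc1d2b (0.94). These genes were picked for the highest r among 11928, over libraries that differ in genotype, sex and depth, so the values carry no p.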
